A study of Mus musculus with 12 samples.

Results

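The genes described here are 10 transcription factor genes of endothelial cells, the cells that line blood vessels. They are Erg, Fli1 and Ets1 of the ETS family, Sox7, Sox17 and Sox18 of the SOXF group, and Tal1, Gata2, Klf2 and Mef2c. Each member was taken by its symbol in the platform annotation, from the probe set that names that gene alone, and all 10 members had exactly 1 such probe set. They are 10 of 19937 genes with a probe set of their own, and all 10 were among the 14217 genes that passed the filter on dim values.

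The arrays held stromal cells sorted from long bones. The mice were C57BL/6 females, either tumor-free or bearing EO771 tumors. EO771 is a mouse mammary carcinoma line of the same strain, and 500000 cells had been injected into the heart and left to grow in bone for about 2 weeks. Osteoblasts, the bone-forming cells, were sorted as negative for GFP, TR119, CD45, SCA1 and CD31 and positive for CD51. Endothelial cells were sorted as negative for GFP, TR119 and CD45 and positive for SCA1 and CD31, so vessel cells without SCA1 lie outside the gate. Each of the 4 groups (osteoblasts from tumor-free mice, osteoblasts from tumor-bearing mice, and endothelial cells from each) held 3 arrays that the labels call biological replicates. No label says whether an array came from 1 mouse or from pooled mice. RNA from 5000 cells per array was amplified and hybridised to an Affymetrix mouse gene array, so precision is limited by the 3 arrays per group. All levels below are log2 probe set values, and a difference of 1 is a doubling. A level is compared only within a gene, since probe sets differ in brightness.

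ETS factors bind a short GGAA core that is present in the enhancers and promoters of most endothelial genes, and Erg and Fli1 are known for keeping the endothelial programme active in mature vessels. SOXF factors act beside them in arterial, venous and lymphatic fate. Tal1 and Gata2 belong to a complex used by both blood stem cells and endothelium, Klf2 is induced by blood flow, and Mef2c is a MADS-box factor that acts upstream of Klf2 in endothelium and has its own roles in bone cells and cartilage. Several members, among them Erg, Fli1, Ets1, Tal1, Gata2 and Mef2c, are also expressed in blood cells.

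The promoter sequences of Klf2 and Erg are shown because the levels of these genes behaved differently: Erg differed between the cell types and Klf2 did not pass the test. RefSeq windows of the 250 bases before an annotated start (build GRCm38.p6) were at hand for 5 of the 10 members, 11 windows in all. In the first window capitals mark the MEF2 motif CTANNNNTAG. In the others they mark GGAAG, a longer form of the ETS core, and the GATA motif (NGATAN with A or T first and A or G last). Each was marked on either strand, and GGAA followed by another base was neither marked nor counted.
Klf2, chr8:72318812-72319061 (plus strand): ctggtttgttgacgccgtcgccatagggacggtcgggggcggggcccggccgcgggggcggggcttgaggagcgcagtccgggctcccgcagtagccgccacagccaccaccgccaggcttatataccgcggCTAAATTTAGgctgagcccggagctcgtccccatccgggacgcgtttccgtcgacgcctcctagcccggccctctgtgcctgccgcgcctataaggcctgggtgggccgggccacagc
Erg, chr16:95586594-95586843 (minus strand): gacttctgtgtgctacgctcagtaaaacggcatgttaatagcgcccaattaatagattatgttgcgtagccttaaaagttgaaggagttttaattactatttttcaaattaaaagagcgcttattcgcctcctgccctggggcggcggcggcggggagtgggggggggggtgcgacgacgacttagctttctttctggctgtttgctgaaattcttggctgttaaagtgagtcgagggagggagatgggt
Erg, chr16:95530366-95530615 (minus strand): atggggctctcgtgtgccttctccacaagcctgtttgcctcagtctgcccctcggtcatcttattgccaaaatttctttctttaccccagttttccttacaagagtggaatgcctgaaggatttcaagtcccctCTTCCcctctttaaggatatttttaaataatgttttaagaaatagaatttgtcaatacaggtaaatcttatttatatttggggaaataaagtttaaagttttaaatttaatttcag
Erg, chr16:95459349-95459598 (minus strand): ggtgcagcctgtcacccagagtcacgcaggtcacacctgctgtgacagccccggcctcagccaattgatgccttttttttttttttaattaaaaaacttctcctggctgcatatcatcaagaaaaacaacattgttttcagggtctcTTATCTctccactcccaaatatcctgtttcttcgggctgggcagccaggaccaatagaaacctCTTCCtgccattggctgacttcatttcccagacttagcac

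The Klf2 window held CTAAATTTAG at -118 to -109 from the start. It was the single MEF2 match among the 11 member windows, and 3.2% of all 32851 RefSeq windows of this length held the motif. The Erg windows differed among themselves. The first held neither GGAAG nor the GATA motif, and the second held GGAAG at -116 to -112. The third held a GATA motif at -103 to -98 and GGAAG at -40 to -36. None of these capitalised matches overlapped another motif that was searched. GGAAG was present in 64.1% of all windows and in 6 of the 11 member windows, and the GATA motif in 26.5% and in 2 of 11. The E-box CANNTG, the KLF motif CACCC and the SOX motif ACAAT were also searched; they were present in 66.2%, 52% and 27.7% of all windows and in 3, 7 and 2 of the 11. These matches describe letters in a window and were not tested as binding sites.

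The sorted cells carried the markers of their labels. The median of 12 endothelial markers was between 9.91 and 10.28 on the endothelial arrays and between 5.87 and 6.18 on the osteoblast arrays. Kdr, the main VEGF receptor, averaged 4.90 ± 0.18 and 4.80 ± 0.13 (SD, n = 3) in the osteoblast groups, below the 40th percentile of every array. Of 12 osteoblast markers 9 had a probe set, with medians of 10.07 to 10.90 on osteoblast arrays and 6.49 to 6.77 on endothelial arrays. The osteoblast arrays also carried chondrocyte markers unevenly, with medians of 8.52, 10.21 and 8.32 in tumor-free and 9.76, 10.09 and 8.16 in tumor-bearing mice (replicates 1 to 3), against 5.67 to 6.36 on endothelial arrays. Markers of monocytes and macrophages had medians of 6.19 to 7.59 on osteoblast arrays and 5.62 to 6.03 on endothelial arrays. In sorted bulk samples, fewer cells of a type and less RNA per cell cannot be told apart.

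**Figure D1:**
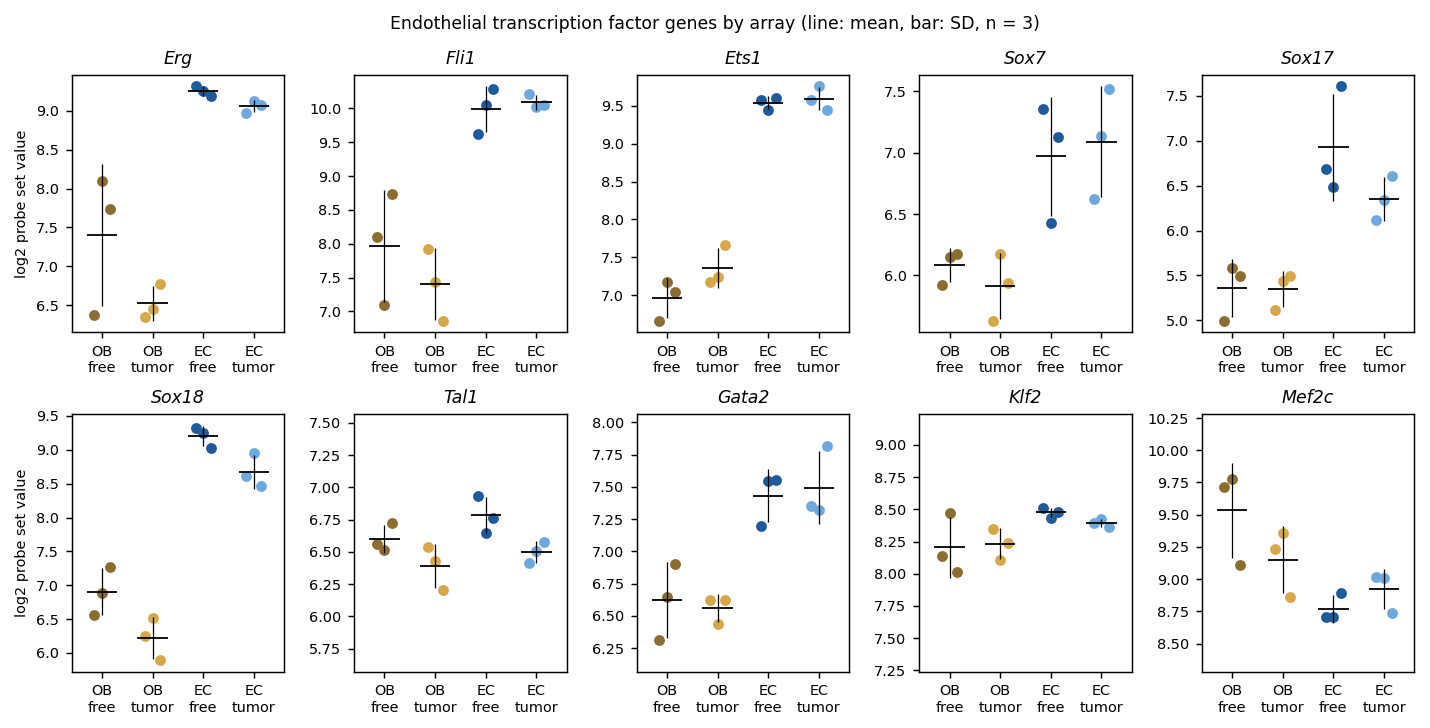
Log2 probe set value of each member gene on each array (points), with the mean (line) and SD (bar) of 3 arrays, for osteoblasts (OB) and endothelial cells (EC) of tumor-free (free) and tumor-bearing (tumor) mice. The vertical range differs between panels; Ets1 sits between 9.45 and 9.76 on every endothelial array and at or below 7.66 on every osteoblast array, while the Klf2 groups lie close together.

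In tumor-free mice 7 of the 10 genes had an adjusted p under 0.05 between endothelial cells and osteoblasts, 6 of them higher in endothelial cells (Erg, Fli1, Ets1, Sox17, Sox18 and Gata2) and Mef2c higher in osteoblasts. Of all genes tested, 12.4% were called in this comparison, 7% higher and 5.38% lower in endothelial cells. In tumor-bearing mice 7 of the 10 were again called, all higher in endothelial cells, with Sox7 added and Mef2c no longer past the threshold; 10.6% of all genes were called there, 5.68% higher in endothelial cells. Sox17 passed the filter on dim values through its endothelial arrays, so its call is not support of its own; without it 5 of 9 genes were higher in tumor-free and 6 of 9 in tumor-bearing mice. The median difference over the 10 genes, Sox17 included, was 1.22 in tumor-free and 1.09 in tumor-bearing mice, beside 0.01 and 0.03 over all genes tested. The tests were limma's moderated fit across all 12 arrays, two-sided, with Benjamini-Hochberg adjustment over all genes tested.

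Ets1, which acts in angiogenic vessels and in lymphocytes, separated the cell types most evenly. Its level was 6.66, 7.18 and 7.04 in tumor-free osteoblasts and 7.18, 7.24 and 7.66 in tumor-bearing osteoblasts. In endothelial cells it was 9.57, 9.45 and 9.60 in tumor-free mice and 9.58, 9.76 and 9.45 in tumor-bearing mice. All 6 endothelial arrays lay above all 6 osteoblast arrays, with a gap wider than the spread within any group. Ets1 was 5.98-fold higher in endothelial cells of tumor-free mice (log2 difference 2.58, SE 0.17, limma adjusted p = 3.35e-06) and 4.70-fold higher in tumor-bearing mice (2.23, SE 0.17, limma adjusted p = 1.07e-05).

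Erg, the ETS factor most closely tied to endothelium, was even across endothelial arrays and uneven across osteoblast arrays. It read 9.31, 9.25 and 9.19 in endothelial cells of tumor-free mice and 8.97, 9.13 and 9.08 in those of tumor-bearing mice. In osteoblasts it read 6.37, 8.10 and 7.74 in tumor-free mice and 6.35, 6.45 and 6.78 in tumor-bearing mice. Replicates 2 and 3 of tumor-free osteoblasts stood well above the other 4 osteoblast arrays, yet below every endothelial array. Erg was 3.60-fold higher in endothelial cells of tumor-free mice (log2 difference 1.85, SE 0.35, limma adjusted p = 0.00526) and 5.78-fold higher in tumor-bearing mice (2.53, SE 0.35, limma adjusted p = 0.000816).

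Fli1, which shares many binding sites with Erg and is also a factor of megakaryocytes, read 8.09, 7.09 and 8.73 in tumor-free and 7.92, 7.44 and 6.86 in tumor-bearing osteoblasts. Its endothelial levels were 9.62, 10.05 and 10.29 in tumor-free and 10.21, 10.01 and 10.04 in tumor-bearing mice. The cell types did not overlap in either condition, and the osteoblast arrays spread over almost 2 log2 units. Fli1 was 4.04-fold higher in endothelial cells of tumor-free mice (log2 difference 2.02, SE 0.38, limma adjusted p = 0.00562) and 6.42-fold higher in tumor-bearing mice (2.68, SE 0.38, limma adjusted p = 0.00107).

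Among the SOXF genes, Sox18, a factor of lymphatic and blood vessel development, had the clearest difference. It read 9.33, 9.25 and 9.03 in tumor-free and 8.62, 8.95 and 8.46 in tumor-bearing endothelial cells, and 6.57, 6.88 and 7.27 and then 6.26, 6.52 and 5.90 in the corresponding osteoblasts. Every endothelial array was above every osteoblast array. The difference was 4.92-fold in tumor-free mice (log2 2.30, SE 0.21, limma adjusted p = 4.88e-05) and 5.47-fold in tumor-bearing mice (2.45, SE 0.21, limma adjusted p = 3.38e-05).

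Sox17, an arterial factor, was near or below the filter level in osteoblasts, at 5.00, 5.59 and 5.50 in tumor-free and 5.12, 5.44 and 5.49 in tumor-bearing mice. The 40th percentile of the arrays, used as the filter, lay between 5.51 and 5.61, and Sox17 exceeded it on 7 of 12 arrays, while the other 9 members exceeded it on all 12. In endothelial cells it read 6.69, 6.48 and 7.61 in tumor-free and 6.11, 6.34 and 6.61 in tumor-bearing mice, above every osteoblast array, with replicate 3 of the tumor-free group standing high. Sox17 exceeded that level on 1 of 6 osteoblast arrays and on all 6 endothelial arrays, so its difference is given from the filter level. With each osteoblast array set no lower than its own filter level, mean Sox17 was 2.55-fold higher in endothelial cells of tumor-free mice. In tumor-bearing mice it was 1.77-fold higher. These folds take no account of the spread between arrays. On the measured values limma adjusted p was 0.00397 in tumor-free and 0.0457 in tumor-bearing mice. The second call ended in 12 of 22 alternative settings, in 9 of them by leaving out 1 array. Those arrays were any of the 6 from tumor-bearing mice, tumor-free osteoblast replicate 2 or 3, or tumor-free endothelial replicate 1, with an adjusted p up to 0.147.

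Sox7, the remaining SOXF gene, read 7.36, 6.43 and 7.12 in tumor-free and 6.62, 7.14 and 7.52 in tumor-bearing endothelial cells. Its osteoblast levels were 5.92, 6.15 and 6.18 and then 5.63, 6.17 and 5.93. The cell types did not overlap, but the endothelial arrays spread over about 1 log2 unit. The difference in tumor-free mice, 0.89 (SE 0.27, limma adjusted p = 0.0615), missed the threshold and passed it without replicate 2 of the tumor-free endothelial cells (1.16, adjusted p = 0.0195). It also passed with tumor-bearing endothelial replicate 1 or 3 left out (adjusted p = 0.0427 and 0.0497), with array weights (0.0472) and with a filter at the 60th percentile (0.0492). In tumor-bearing mice it was 1.18 (SE 0.27, limma adjusted p = 0.0189). That call ended without replicate 1 of the tumor-bearing osteoblasts (adjusted p = 0.0735) and with tumor-bearing endothelial replicate 2 or 3 left out (0.0592 and 0.0707).

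Gata2, a zinc-finger factor of endothelium, blood stem cells and mast cells, was modestly higher in endothelial cells. It read 7.20, 7.55 and 7.55 in tumor-free and 7.35, 7.32 and 7.82 in tumor-bearing endothelial cells, against 6.31, 6.65 and 6.90 and then 6.63, 6.44 and 6.62 in osteoblasts. Endothelial and osteoblast arrays did not overlap in either condition. The difference was 0.81 (SE 0.18, limma adjusted p = 0.0155) in tumor-free and 0.93 (SE 0.18, limma adjusted p = 0.00825) in tumor-bearing mice. The tumor-free call ended without replicate 1 of the osteoblasts (adjusted p = 0.0542) and without replicate 2 or 3 of the endothelial cells (0.0615 and 0.0608). Of 8 mast cell and basophil markers, at most 1 was above the filter level on any array. The part of these cells in the Gata2 values was not tested.

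Tal1, the basic helix-loop-helix partner of the GATA factors, read 6.94, 6.65 and 6.76 in tumor-free endothelial cells and 6.56, 6.51 and 6.72 in tumor-free osteoblasts. In tumor-bearing mice it read 6.41, 6.51 and 6.58 in endothelial cells and 6.54, 6.43 and 6.20 in osteoblasts. The cell types overlapped in both conditions. The difference was 0.18 (95% interval -0.08 to 0.45, limma adjusted p = 0.424) in tumor-free and 0.11 (-0.16 to 0.38, limma adjusted p = 0.677) in tumor-bearing mice.

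Klf2, the flow-induced factor, read 8.51, 8.44 and 8.48 in tumor-free and 8.39, 8.42 and 8.36 in tumor-bearing endothelial cells. In osteoblasts it read 8.13, 8.47 and 8.01 and then 8.35, 8.11 and 8.24. The endothelial values were among the tightest measured, with an SD at the 5.04th and 2.52nd percentile of all genes tested in the respective groups. The differences of 0.27 (95% interval -0.0046 to 0.54, limma adjusted p = 0.222) and 0.16 (-0.11 to 0.43, limma adjusted p = 0.517) missed the threshold. With tumor-free osteoblast replicate 2 left out, the first became 0.40 with an adjusted p of 0.0436. These intervals hold no difference larger than 0.54, well below the differences measured for the ETS genes.

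Mef2c ran the other way. It read 9.72, 9.77 and 9.11 in tumor-free osteoblasts and 8.71, 8.71 and 8.89 in tumor-free endothelial cells, without overlap. In tumor-bearing mice it read 9.23, 9.36 and 8.86 in osteoblasts and 9.01, 9.01 and 8.74 in endothelial cells, with overlap. Mef2c was 1.70-fold lower in endothelial cells of tumor-free mice (log2 difference -0.76, SE 0.19, limma adjusted p = 0.0249), while the difference in tumor-bearing mice was -0.23 (95% interval -0.65 to 0.20, limma adjusted p = 0.558). The first call ended without replicate 1 or 2 of the tumor-free osteoblasts (adjusted p = 0.0839 and 0.0848), without replicate 1 or 2 of the tumor-free endothelial cells (0.0834 and 0.0815), and with the 2 groups fitted alone (0.0656). Whether the 2 conditions differ was tested as the difference of the tumor effects, 0.54, which did not pass (unadjusted p = 0.0748, limma adjusted p = 0.805). Chondrocytes also use Mef2c, and their marker medians on the osteoblast arrays are those given above; their part in the difference was not tested.

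**Figure D2:**
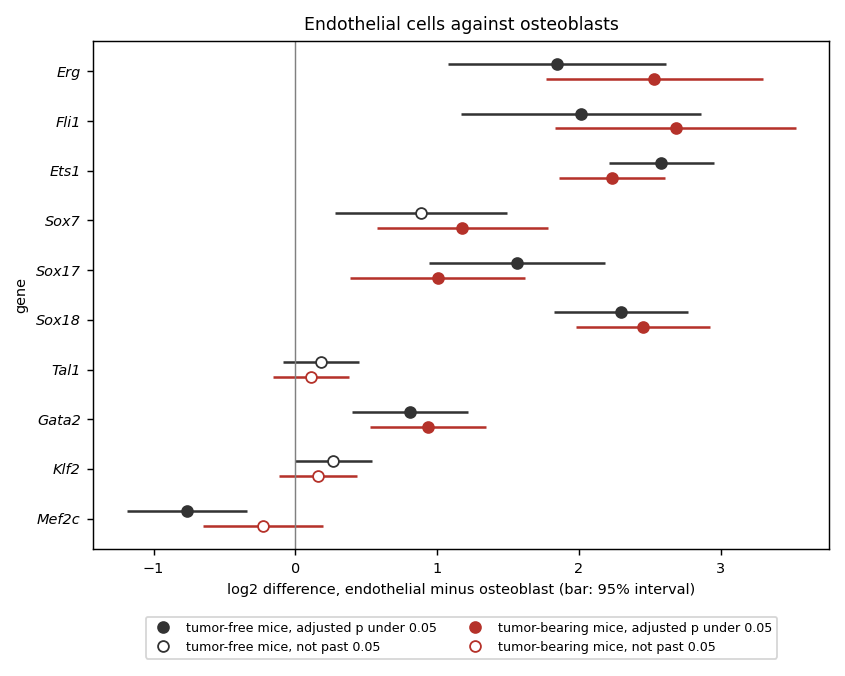
Log2 difference between endothelial cells and osteoblasts for each gene (points, with 95% interval bars), in tumor-free (black) and tumor-bearing mice (red); filled points have an adjusted p under 0.05. The ETS genes and Sox18 lie between 1.85 and 2.68, Tal1 and Klf2 lie near 0, and Mef2c is the one gene below 0.

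Counted by separation alone, 7 of the 10 genes were higher on all 3 endothelial arrays than on any osteoblast array in tumor-free mice and 8 in tumor-bearing mice, where Klf2 joined. Such a separation in this direction was seen for 15.8% and 16% of all genes tested. Both member counts include Sox17, which passed the filter through its endothelial arrays, so its separation is not support of its own.

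The ETS genes among the members were set beside the rest of their family, a list chosen by family and not by level. Of 26 ETS genes named, 21 were tested and 5 were higher in endothelial cells in both conditions, with none lower. Besides Erg, Fli1 and Ets1 these were Ets2, a close relative of Ets1, at 2.63 in tumor-free and 2.72 in tumor-bearing mice (limma adjusted p = 1.21e-05 and 1.03e-05), and Elk3, a ternary complex factor that also serves as a repressor, at 2.07 and 2.03 (limma adjusted p = 0.000162 and 0.000203). The count of 5 includes Erg, Fli1 and Ets1, which are members chosen as endothelial factors. Of the 18 tested ETS genes outside the members, 2 were higher and none lower in each condition, with a median difference of 0.09 in both. For this list and those below, the shares of all genes tested were 7% higher and 5.38% lower in tumor-free mice. In tumor-bearing mice 5.68% were higher. In the RefSeq gene order 4 of these 5 genes form neighbouring pairs, Erg beside Ets2 on chromosome 16 and Fli1 beside Ets1 on chromosome 9.

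The SOX family was less uniform. Of 15 SOX genes named, 14 were tested. In endothelial cells 3 were higher and 1 lower in tumor-free mice, and 4 higher and 1 lower in tumor-bearing mice. The higher counts include Sox17, which passed the filter through its endothelial arrays. Outside SOXF the higher gene was Sox11, which exceeded the filter level on 1 of 6 osteoblast arrays and passed the filter through its endothelial arrays. Set against the filter level it was 1.69-fold and 1.72-fold higher, with no account of the spread between arrays. On the measured values limma adjusted p was 0.0463 in both, and these calls ended under most alternatives (adjusted p up to 0.139 and 0.148). The lower gene was Sox9, the master factor of cartilage, at -1.75 (limma adjusted p = 0.0245) and -2.51 (limma adjusted p = 0.00385); the first of these calls ended with any of the tumor-free endothelial arrays left out (adjusted p from 0.0599 to 0.0774). Sox9 is itself one of the 10 chondrocyte markers whose medians on osteoblast arrays ranged from 8.16 to 10.21.

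**Figure D3:**
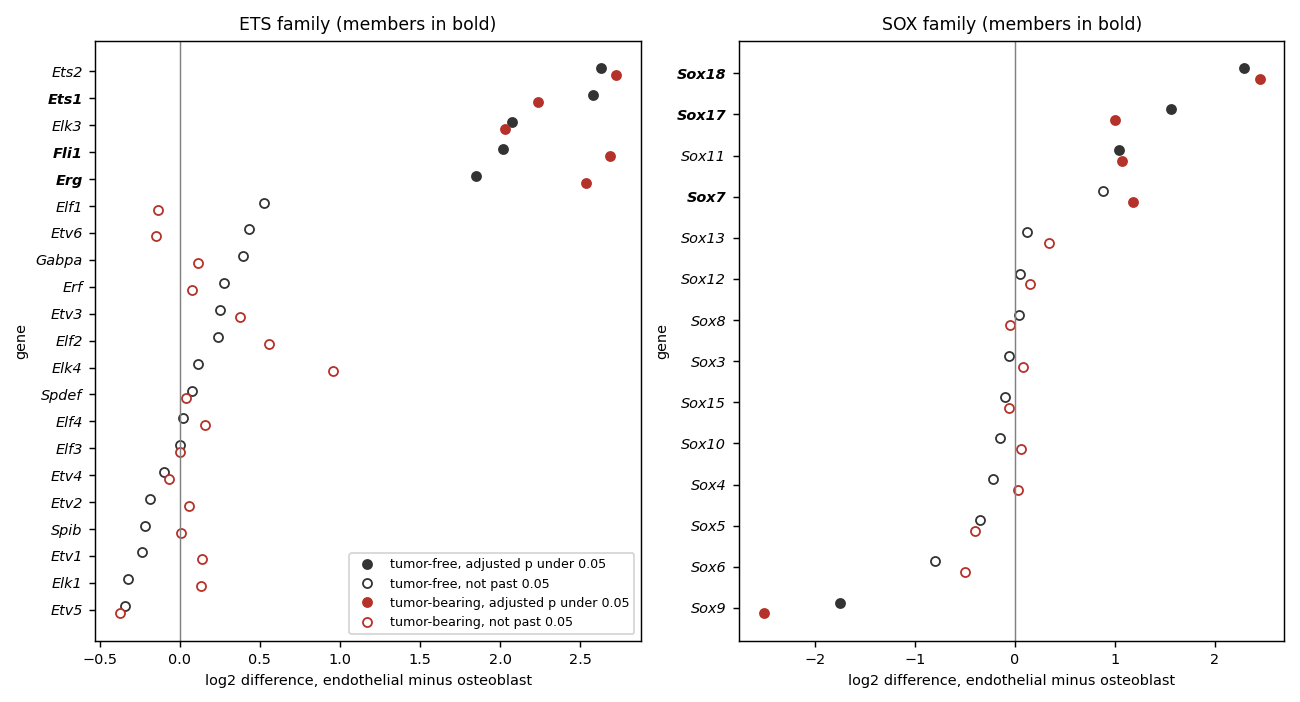
Log2 difference between endothelial cells and osteoblasts for each tested ETS gene (left) and SOX gene (right), in tumor-free (black) and tumor-bearing mice (red); filled points have an adjusted p under 0.05 and member genes are in bold. Erg, Fli1, Ets1, Ets2 and Elk3 stand between 1.85 and 2.72, apart from the other ETS genes, while Sox9 lies at -1.75 and -2.51.

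Other factors and partners of the endothelial programme gave a mixed picture. Of 28 listed, 26 were tested; 7 were higher and 1 lower in endothelial cells of tumor-free mice, with a list median of 0.39, and 7 were higher and none lower in tumor-bearing mice, with a median of 0.27. Gata3 and Sox11 passed the filter through their endothelial arrays; of the other 24, 6 were higher in each condition. Hhex, a homeobox factor of early endothelium and blood, was higher by 3.14 (limma adjusted p = 8.63e-05), and Nr2f2, the factor of venous identity, by 2.43 (limma adjusted p = 0.000117). Tcf4, an E protein, was higher by 1.32 (limma adjusted p = 0.00253) and Epas1, an oxygen-regulated factor, by 1.07 (limma adjusted p = 0.00321). Aplnr, the apelin receptor and so no transcription factor, was the list's largest difference at 4.42 (limma adjusted p = 5.28e-08). Foxc1, which marks bone marrow reticular and mesenchymal cells, was lower, at -1.60 (limma adjusted p = 0.0113).

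Endothelial genes known to take ETS, SOXF or GATA input were higher in endothelial cells for 21 of 24 in tumor-free mice and 20 of 24 in tumor-bearing mice, with none lower and medians of 2.79 and 2.81. Kdr, Flt4, Tek and Emcn passed the filter through their endothelial arrays alone; of the other 20 genes, 17 and 16 were higher. All 12 endothelial markers used above to check the sort are among these 24 genes, and CD31, used in the sort, is the product of Pecam1. The differences of these markers are therefore no support of their own. The smallest called difference in tumor-free mice was that of the Notch ligand Dll4, at 0.77 (limma adjusted p = 0.00544).

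Genes known to respond to KLF2 were higher for 6 of 11 tested and lower for 1 in tumor-free mice, beside a Klf2 difference that did not pass. Of all genes tested, 7% were called higher and 5.38% lower there. Tek and S1pr1, among the genes called higher, are also in the preceding list. Thbd, the anticoagulant receptor thrombomodulin, was higher by 2.65 (limma adjusted p = 1.66e-05), Slc9a3r2, a scaffold protein, by 1.44 (limma adjusted p = 0.000326) and Aqp1, a water channel, by 1.34 (limma adjusted p = 0.00293). Cxcl12, the chemokine that marrow stroma produces in quantity, was lower, at -1.92 (limma adjusted p = 0.00311). In tumor-bearing mice 4 of the 11 were higher and none lower, with Thbd at 2.95 and Aqp1 at 2.34. Without Tek and Edn1, which passed the filter through their endothelial arrays, 5 and 3 of 9 were higher.

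In endothelial cells, none of the 10 genes passed the threshold between tumor-bearing and tumor-free mice with limma, and 0.0141% of all genes (2 of 14217) did. At an unadjusted p under 0.05 stood 2 of the 10, Sox18 and Tal1, beside 4.59% of all genes. Sox18 had a log2 difference of -0.53 (95% interval -1.002 to -0.06, unadjusted p = 0.0314, limma adjusted p = 1.00) and Tal1 one of -0.28 (-0.55 to -0.01, unadjusted p = 0.0404, limma adjusted p = 1.00). Sox17 had a difference of -0.57 (-1.19 to 0.05, unadjusted p = 0.0671, limma adjusted p = 1.00), and it became -0.23 with tumor-free endothelial replicate 3 left out. Differences over the 10 genes ran from -0.57 to 0.15, with a median of -0.01 beside 0.01 over all genes.

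The tumor-bearing endothelial arrays lay wholly below the tumor-free ones for 4 of the 10 genes (Erg, Sox18, Tal1 and Klf2) and wholly above for none; 4.87% of all genes separated in that direction. For Erg and Klf2 the differences behind this were small, -0.19 and -0.08. The median of 10 pericyte and smooth muscle markers moved with the same groups, from 6.20 to 6.55 on tumor-free endothelial arrays to 6.88 to 6.92 on tumor-bearing ones, and the summed linear level from 4124 to 4317 up to 4692 to 5050; between 9 and 10 of these 10 markers were above the filter level on each array. Other lists separated these groups on either the median or the summed linear level and overlapped on the other measure. The erythroid median (8 of 12 markers with a probe set) was 6.47 to 6.63 on tumor-free and 6.34 to 6.46 on tumor-bearing arrays, and the pan-haematopoietic median (10 of 10) 5.75 to 5.93 and 5.59 to 5.68, both lower as the 4 genes were. The monocyte and macrophage median (10 of 10) was 5.62 to 5.64 and 5.75 to 6.03. The summed linear level of megakaryocyte markers (7 of 10) was 590 to 743 and 835 to 961, and that of osteoblast markers (9 of 12) 6411 to 6837 and 6875 to 7731. The part of these cells in the differences was not tested.

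In osteoblasts, again none of the 10 passed with limma, beside 0.0563% of all genes (8 of 14217). At an unadjusted p under 0.05 stood 3 of the 10, beside 9.78% of all genes. Sox18 was at -0.68 (95% interval -1.15 to -0.21, unadjusted p = 0.0091, limma adjusted p = 0.344), Erg at -0.88 (-1.64 to -0.11, unadjusted p = 0.0292, limma adjusted p = 0.452) and Ets1 at 0.40 (0.03 to 0.77, unadjusted p = 0.0367, limma adjusted p = 0.482). Ets1 was the one gene wholly higher and Sox18 the one gene wholly lower on the tumor-bearing arrays, separations seen for 6.18% and 8.36% of all genes. The Erg and Ets1 values depended on single arrays. The Erg difference was -1.39 (limma adjusted p = 0.0321) with tumor-free osteoblast replicate 1 left out and -0.53 (limma adjusted p = 0.574) with replicate 2 of that group left out. Ets1 became 0.25 with tumor-bearing osteoblast replicate 3 left out, and also with tumor-free osteoblast replicate 1 left out (limma adjusted p = 0.740 and 0.658). Sox18 became -0.34 (limma adjusted p = 0.692) with replicate 3 of both osteoblast groups left out together, an alternative chosen after seeing the data.

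Among the marker lists, only the erythroid and B cell lists separated the osteoblast groups, each on either the median or the summed level alone. All other lists overlapped on both measures. Of all genes tested, 6.18% were wholly higher and 8.36% wholly lower on the tumor-bearing osteoblast arrays. The summed linear level of erythroid markers was 825 to 1099 on tumor-free and 518 to 696 on tumor-bearing arrays, without overlap. The median of B cell markers (9 of 10 with a probe set) was 6.10 to 6.16 and 5.52 to 6.00, also without overlap. The erythroid median and the summed B cell level did overlap between these groups. Neutrophil markers (10 of 10) summed to 3641 to 13664 on tumor-free and 1668 to 4206 on tumor-bearing arrays, with overlap. Their part in the Sox18, Erg and Ets1 values was not tested.

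**Figure D4:**
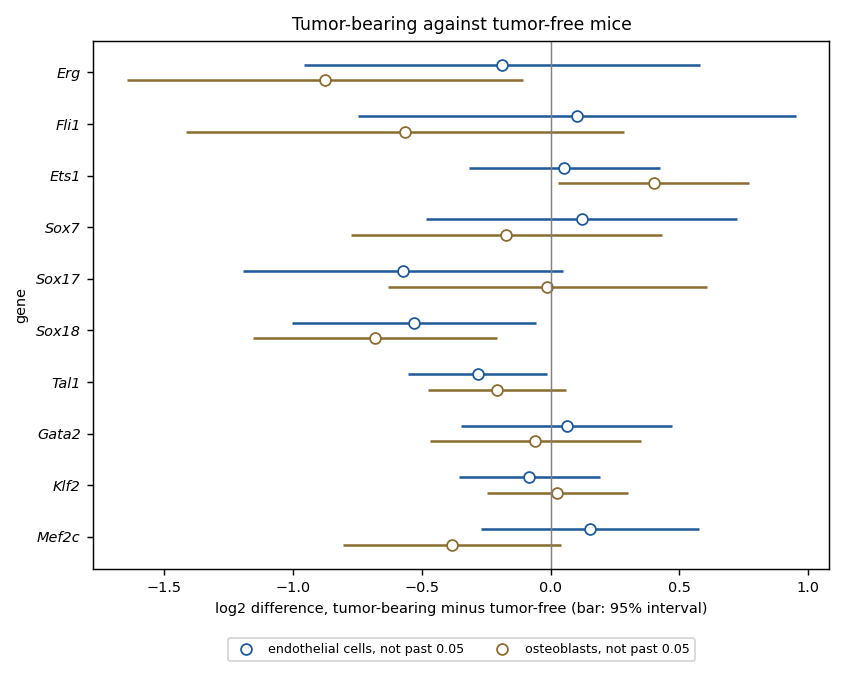
Log2 difference between tumor-bearing and tumor-free mice for each gene (points, with 95% interval bars), in endothelial cells (blue) and osteoblasts (brown). No point has an adjusted p under 0.05; the interval of Sox18 lies below 0 in both cell types, from -1.002 to -0.06 and from -1.15 to -0.21.

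Sox18 was the one member whose tumor-bearing arrays were wholly below the tumor-free arrays in both cell types, as were 56 of all genes tested (0.394%). The average of its tumor effects in the 2 cell types, a contrast added after the values were seen, was -0.61 (SE 0.15, unadjusted p = 0.00227), and after adjustment over all genes it did not pass (limma adjusted p = 0.408). Tal1 gave -0.25 in the same contrast (SE 0.09, unadjusted p = 0.016, limma adjusted p = 0.518). None of the 10 passed, beside 0.0211% of all genes.

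The tumor effect itself did not differ between the cell types for any of the 10 at the adjusted threshold, nor at an unadjusted p under 0.05, beside 0.0281% and 6.47% of all genes. The estimates of this difference (endothelial minus osteoblast effect) ran from -0.56 for Sox17 to 0.69 for Erg (limma adjusted p = 0.857 and 0.859), and with 3 arrays per group their intervals are wide. None of the listed ETS relatives, partners, target genes, KLF2-responsive genes or other SOX genes passed in either tumor comparison with limma. At unadjusted p-values under 0.05 stood 2 of 24 target genes and 2 of 11 KLF2-responsive genes in endothelial cells, beside 4.59% of all genes. The target genes were Ecscr at -0.66 (unadjusted p = 0.00339) and Vegfc at 0.80 (unadjusted p = 0.00651). The KLF2-responsive genes were Aqp1 at 0.78 (unadjusted p = 0.00586) and Cxcl12 at 1.06 (unadjusted p = 0.00909), with limma adjusted p of all of these from 0.720 to 0.845. The listed ETS relatives, partners and other SOX genes had 0 there. In osteoblasts 3 of 24 target genes and 1 of 26 partners stood at an unadjusted p under 0.05, beside 9.78% of all genes. Among them were Clec14a at 0.82 (unadjusted p = 0.0046), Pecam1 at 0.54 (unadjusted p = 0.0326) and Epas1 at -0.53 (unadjusted p = 0.0159), with limma adjusted p from 0.299 to 0.466. Of the other lists, 2 of 18 ETS relatives, 1 of 11 KLF2-responsive genes and 1 of 11 other SOX genes stood there in osteoblasts. These were Elk1 at -0.38 (unadjusted p = 0.0115), Elk4 at -0.75 (unadjusted p = 0.0216), Timp3 at 0.65 (unadjusted p = 0.0338) and Sox9 at 1.01 (unadjusted p = 0.0427), with limma adjusted p from 0.360 to 0.490.

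The uneven osteoblast values of Erg and Fli1 were large for these data. The SD of Erg and Fli1 in tumor-free osteoblasts stood at the 95.5th and 94.2nd percentile of all genes tested. Erg was highest on replicate 2 and Fli1 on replicate 3, so the 2 genes did not follow each other. The median of the 12 endothelial markers on the same 3 arrays was 5.87, 6.18 and 6.08, and Cdh5, the endothelial cadherin, read 5.80, 6.23 and 5.89. The median of 10 pan-haematopoietic markers was 5.90, 5.61 and 6.62 and that of 10 monocyte and macrophage markers 6.45, 6.19 and 7.59, both highest on replicate 3, as was Fli1. The chondrocyte median was 8.52, 10.21 and 8.32, highest on replicate 2, as was Erg. On the tumor-bearing osteoblast arrays replicates 1 and 2 had chondrocyte medians of 9.76 and 10.09 with Erg at 6.35 and 6.45, and replicate 3 had the highest pan-haematopoietic median, 6.81, with the lowest Fli1, 6.86. The summed neutrophil markers followed the order of Fli1 in both groups, at 3788, 3641 and 13664 on the tumor-free arrays and 4206, 2949 and 1668 on the tumor-bearing arrays; their median, 6.65, 7.12 and 9.49 and then 6.78, 6.31 and 6.18, did so in the tumor-bearing group. The megakaryocyte median was 6.84, 6.18 and 6.70 and then 6.89, 6.499 and 6.28, the order of Fli1 in the tumor-bearing group alone. The part of these cells in the Erg and Fli1 values was not tested.

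**Figure D5:**
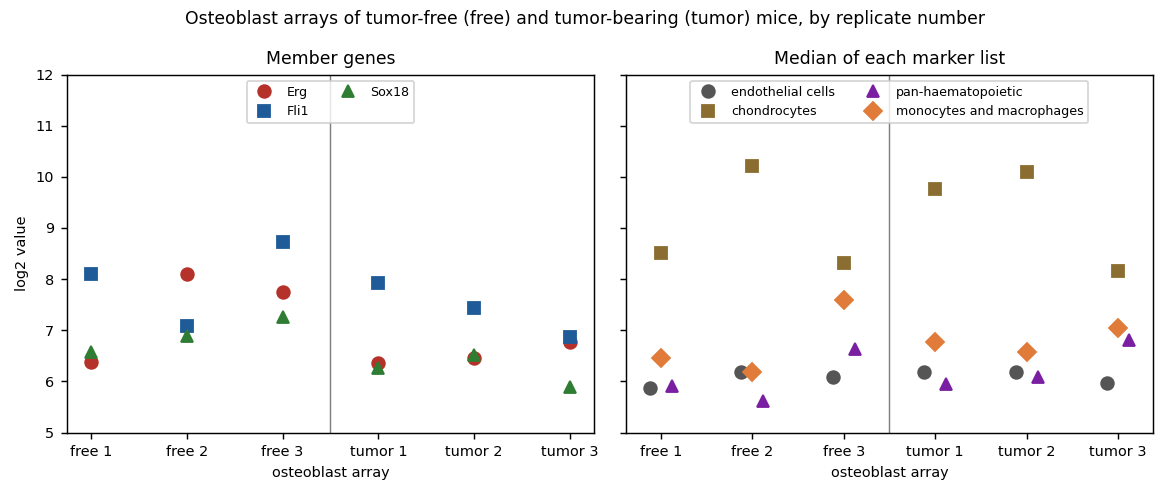
Log2 values of Erg, Fli1 and Sox18 (left) and the median log2 value of 4 marker lists (right) on each of the 6 osteoblast arrays; the points of the right panel are shifted slightly sideways to stay visible. Erg reaches 8.10 on replicate 2 and Fli1 8.73 on replicate 3 of the tumor-free group, while the endothelial marker median stays between 5.87 and 6.18 on all 6.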

How the data were processed

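RNA from sorted osteoblasts and endothelial cells was measured on 12 single-colour arrays. The deposited values are on a log2 scale; per the submitters' processing notes the affy package was used, and the background correction, scaling and summary steps are unknown here. Per the labels, RNA was amplified by SPIA before labelling. Array medians were 5.95 to 6.04, and no 2 arrays were identical.

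Of 34760 probe sets, 21640 named 1 gene, 1321 several and 11799 none. Each gene was represented by its brightest single-gene probe set (19937 genes), and a gene was tested if above the array's 40th percentile on at least 3 of 12 arrays. limma 3.58.1 in R 4.3.3 fitted 1 coefficient per group to the 12 arrays, with eBayes and Benjamini-Hochberg adjustment (threshold 0.05); scripts were tested on simulated data. Genes named are the 10 members, up to 5 (tumor-free cell type comparison) and 2 (each tumor comparison) leading genes per list, and the 3 genes most correlated with each member; calls from other comparisons were named after their values were seen. The members and lists were chosen with earlier results of these data known. P-values measure only the spread between these samples. Same-numbered arrays were checked for pairing, with deviations correlating between -0.052 and 0.074, so the numbers were not used as a block. The alternatives covered scaling, filter, probe set choice, variance model, arrays fitted, replicate block and leaving out each array.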

Additional observations from a re-analysis of the deposited data

How the results depend on the processing

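Over the alternatives of scaling, filter, variance model, replicate block and arrays left out, Erg, Fli1, Ets1 and Sox18 kept both cell type calls in all 22, as did Sox17 in tumor-free and Gata2 in tumor-bearing mice. Mef2c kept its tumor-free call in 17, Gata2 in 19, and in tumor-bearing mice Sox7 kept it in 18 and Sox17 in 10. With 1 array left out, the osteoblast tumor comparison gave 0 to 1 members past the threshold; the 1 was Erg, without replicate 1 of the tumor-free osteoblasts. Of 1090 member values under alternatives, 26 changed sign, all of them uncalled. Changes of filter, probe set choice or replicate block could not alter a member's difference, nor could leaving out an array outside the groups compared. The count of 26 is therefore no measure of stability. In the osteoblast tumor comparison, quantile normalization gave 0.030 for Sox17 and -0.033 for Klf2, and median centring gave 0.012 for Sox17. Without replicate 3 of both osteoblast groups, an alternative chosen after seeing the data, the same comparison gave Fli1 0.087, Gata2 0.050 and Klf2 -0.075, the Sox18 difference of tumor effects was -0.19, and the tumor-bearing calls of Sox7 and Sox17 ended (adjusted p = 0.0601 and 0.0888). Leaving out 1 array at a time, values that changed sign ranged as follows: in the osteoblast tumor comparison, Klf2 -0.071 to 0.16, Sox17 -0.19 to 0.10, Gata2 -0.21 to 0.081, in the difference of tumor effects, Sox18 -0.028 to 0.32, Gata2 -0.039 to 0.28, Tal1 -0.17 to 0.0019, in the endothelial tumor comparison, Fli1 -0.080 to 0.26, Gata2 -0.099 to 0.15, Sox7 -0.15 to 0.36, Ets1 -0.029 to 0.13. The cause of these changes was not tested. The replicate numbers are not shown to pair the arrays; with the replicate block, 7 members were called in each cell type comparison and 0 in each tumor comparison, as without it. Arrays give no read depth: Sox17 in osteoblasts lies near the filter level, so its level there may be background.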

Other observations

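The genes whose levels followed each member most closely over the 12 arrays were found by Pearson's r. The arrays fall into 2 cell types, so these values describe mainly a shared difference between cell types. Ets1 was closest to Tfpi (0.995), an inhibitor of the tissue factor pathway of coagulation, then to Aplnr (0.993) and Rapgef5 (0.991). Fli1 was closest to Ctnnal1 (0.987), Rbpms (0.982) and Palmd (0.975). Sox18 was closest to Wscd1 (0.987), Magi1 (0.981) and Ackr1 (0.972), a chemokine-binding receptor of venular endothelium. Erg was closest to Gngt2 (0.970), Tbc1d4 (0.965) and Rnf130 (0.957). Sox7 was closest to Pcdh17 (0.934), Hsd3b7 (0.930) and Fgd5 (0.930), Sox17 to Rinl (0.961), Uba7 (0.956) and Zfp691 (0.943), and Gata2 to Ccdc69 (0.960), Gimap1 (0.943) and B3gnt3 (0.942). Mef2c, the member higher in osteoblasts, was closest to Gpc3 (0.942), Kcnip3 (0.929) and Wwp2 (0.927). Klf2 was closest to Foxj2 (0.944), Ppp1r2 (0.923) and Vps33a (0.919), and Tal1 to Slx4 (0.910), Rad54l2 (0.904) and 1700021F07Rik (0.895).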
